A study of Mus musculus with 8 samples.

Results

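The histone genes were taken as every gene symbol of the deposited tables that starts with Hist1h, Hist2h, Hist3h, Hist4h, H1f, H2af or H3f, which gave 73 of 18790 named genes. The 58 members with a Hist name are treated here as the replication-dependent subset, and the 15 members named H1f, H2af or H3f as the replacement subset. The rule uses the symbol alone, but it was set with earlier results of these data known. The Hist-named subset held 6 H1, 15 H2A, 15 H2B, 10 H3 and 12 H4 genes, and the replacement subset held 4 H1, 9 H2A and 2 H3 genes. By this rule no H2B or H4 gene is a replacement gene.

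RNA came from femoral bone marrow of untreated C57BL/6 mice carrying the Csf1r-EGFP reporter, in which regulatory sequence of the macrophage growth factor receptor gene drives green fluorescent protein. The CD11b+ libraries were made from cells sorted as CD11b+, F4/80+, Ly6G-, GFP low and VCAM1+, and the CD11b- libraries from cells sorted as CD11b-, F4/80+, GFP+ and VCAM1+. Each population had 4 biological replicates, prepared with SmartSeq2, a full-length protocol primed on poly(A) tails that keeps no strand information. The series title frames both sorts as cells other than macrophages that carry pieces of macrophages, so the antibody markers do not by themselves name the cell type.

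Chromatin is built from H2A, H2B, H3 and H4 wrapped in DNA, with H1 binding where the DNA enters and leaves. Most of this protein is made in S phase from clustered, intronless genes whose mRNAs end in a conserved stem-loop, bound by stem-loop binding protein, in place of a poly(A) tail. Replacement histones such as H3.3, H2A.Z, H2A.X and macroH2A are made from separate, mostly polyadenylated mRNAs through the cell cycle and in cells that no longer divide.

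Because the libraries were primed on poly(A) tails, the levels below are of tailed RNA, and the share of each gene's mRNA that carries a tail was not measured. All 73 symbols matched 1 gene each in GENCODE M21, the mouse annotation on build GRCm38. A search on the transcript strand for the stem-loop, written as the opening side GGCNCT, the loop TTTN and the closing side AGNGCC with no gap, found it in 47 of 55450 annotated genes, of which 4 have no histone name of these kinds. It was found in 36 of the 58 Hist-named members, and in 1 of the 15 replacement members, H2afx. Among the members it was looked for after the coding sequence, so a transcript annotated to end near the stop codon could not show it. The stem-loops of 7 members, the called genes that have one and the H1 and H4 genes Hist1h1e and Hist1h4d, are shown because this element marks the kind of transcript that can end without a tail. Each is 28 bases of the annotated transcript, 5′ to 3′, with the 16 bases of the stem-loop in capitals.
Hist1h2ae: aacaaaGGCTCTTTTCAGAGCCattcac
Hist3h2a: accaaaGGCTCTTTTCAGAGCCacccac
Hist1h1e: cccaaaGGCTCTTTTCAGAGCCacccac
Hist2h2ac: caaaaaGGCTCTTTTTAGAGCCaccaaa
Hist1h2ab: aacaaaGGCTCTTTTCAGAGCCacccac
Hist1h4d: accaaaGGCCCTTTTCAGGGCCactacc
H2afx: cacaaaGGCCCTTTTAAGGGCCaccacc
The transcripts annotated for these genes run on beyond the stem-loop, by 1643 bases in Hist3h2a, 1153 in Hist1h1e, 822 in H2afx, 770 in Hist1h4d, 151 in Hist1h2ae, 57 in Hist2h2ac and 11 in Hist1h2ab. H2afx encodes H2A.X, the H2A form that is phosphorylated beside DNA breaks.

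Depth ranged from 36517568 to 47844998 counts over named genes in the CD11b+ libraries and from 27337092 to 34996595 in the CD11b- libraries. Levels are given as CPM, counts scaled by these totals, and 3 counts correspond to 0.0627 to 0.110 CPM, the most a listed 0 allows, for counting error only. The median fitted log2 fold change, CD11b+ over CD11b-, of the 11965 genes tested was -0.01. All 12 neutrophil and granulocyte markers were higher in CD11b+ cells, with summed levels of 135430 to 156740 CPM against 648 to 6922 CPM in CD11b- cells, as were all 5 eosinophil markers, at 6502 to 18708 CPM in CD11b+ cells against 28.3 to 404 CPM in CD11b- cells. All 13 erythroid markers were lower in CD11b+ cells, at 773 to 1272 CPM against 32860 to 44061 CPM in CD11b- cells, as were 7 of 8 tested B progenitor markers, at 53.2 to 131 CPM in CD11b+ cells against 1141 to 2241 CPM in CD11b- cells over the 10 of the list. The 15 resident macrophage markers summed to 1766 to 2040 CPM in CD11b+ cells and 1382 to 1763 CPM in CD11b- cells, with 4 higher, 2 lower and 9 not called. No marker was at 0 in every library of either population. In bulk libraries fewer cells of a type and less RNA per cell cannot be told apart, and the part of these markers in the histone results was not tested.

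Levels counted from tailed RNA of the replication-dependent histone genes were low in both populations and lower in the CD11b+ cells. Hist-named genes share a median of 45.6% of their transcripts' 50-base stretches with other annotated genes, against 6.14% for replacement genes. How multiply mapped reads were handled is not given, so the Hist-named sums and shares may be too low. Untailed histone mRNA was not measured, so the sums and shares below are of tailed RNA only. The summed level of the 58 Hist-named genes was 84.7, 67.6, 67.9 and 66.0 CPM in CD11b+ replicates 1 to 4, against 315, 325, 380 and 431 CPM in CD11b- replicates 1 to 4. Every CD11b+ library lay far below every CD11b- library, with a mean of 71.5 ± 8.80 CPM in CD11b+ cells and 363 ± 53.7 CPM in CD11b- cells (SD, n = 4 each), a 5.07-fold lower level. The 15 replacement genes summed to 2893, 2925, 2838 and 3503 CPM in CD11b+ replicates and 4136, 3839, 4201 and 4866 CPM in CD11b- replicates. These groups did not overlap either, but their means, 3040 ± 311 CPM in CD11b+ cells and 4261 ± 433 CPM in CD11b- cells, stood only 1.40-fold apart. Hist-named genes made up 2.32 ± 0.408% of all histone counts in CD11b+ cells and 7.83 ± 0.544% in CD11b- cells. The CD11b- library with the highest Hist-named sum, replicate 4, had the lowest level of the granulocyte precursor gene Mpo, 413 CPM, and replicate 1, with the lowest sum, had the highest, 5827 CPM. Replicates 2 and 3 had 3966 and 1457 CPM of Mpo. The ratio of the mean Hist-named sums, CD11b+ over CD11b-, was 0.197 over all libraries and 0.176 without the 2 CD11b- libraries highest in Mpo, where 4 Hist-named and 4 replacement genes were called. The share of all genes called in that fit is not set beside these counts, so they are not read against a background.

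**Figure D1:**
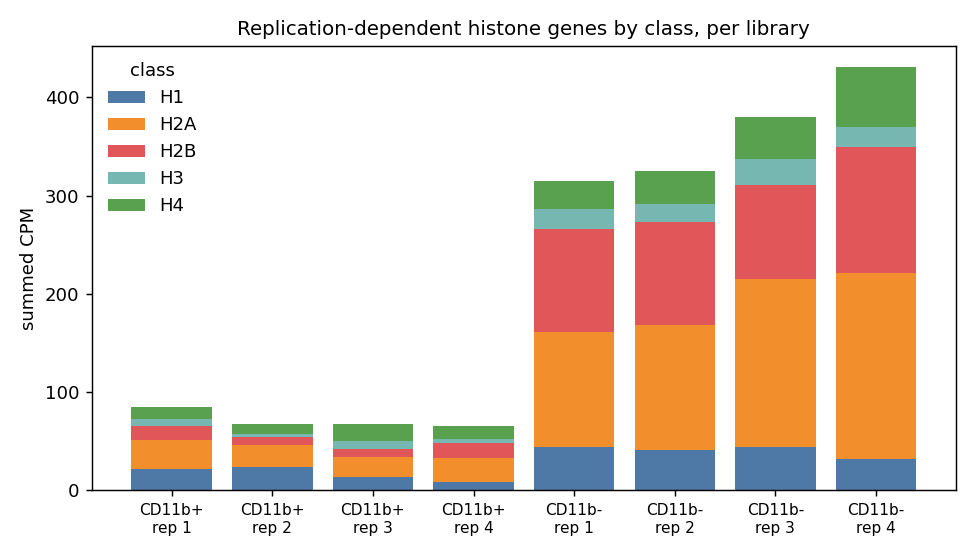
Summed CPM of the replication-dependent histone genes in each of the 8 libraries, stacked by class (H1, H2A, H2B, H3, H4), with the CD11b+ libraries on the left and the CD11b- libraries on the right. The CD11b+ bars reach 66.0 to 84.7 CPM and the CD11b- bars 315 to 431 CPM, with H2A and H2B taking most of the CD11b- bars.

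The difference was uneven over the classes. H2B genes summed to 11.4 ± 4.44 CPM in CD11b+ cells and 108 ± 13.9 CPM in CD11b- cells, 9.50-fold lower. H2A genes summed to 24.1 ± 3.37 CPM in CD11b+ cells and 151 ± 34.9 CPM in CD11b- cells, 6.28-fold lower. These are the proteins of the H2A-H2B dimer, and most of each sum lay in 1 or 2 genes. H3 genes summed to 5.70 ± 2.36 CPM in CD11b+ cells and 21.4 ± 3.65 CPM in CD11b- cells, 3.76-fold lower. The H4 sums were 13.2 ± 3.27 CPM in CD11b+ cells and 41.6 ± 14.3 CPM in CD11b- cells, 3.16-fold lower. The linker histones of the H1 class stood closest, with 17.2 ± 7.36 CPM in CD11b+ cells and 40.3 ± 5.85 CPM in CD11b- cells, 2.35-fold lower. In every class the 4 CD11b+ libraries lay below the 4 CD11b- libraries. Differences between these folds were not tested.

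Of the 73 members, 69 had a count in some library, and Hist1h3a, Hist1h4b, Hist1h4j and H1fnt were at 0 in all 8. A filter on low counts, at least 0.2797 CPM in at least 4 libraries, left 33 Hist-named and 8 replacement genes for the test. Of the 33, 14 reached that level in all 4 CD11b+ libraries, and 15 reached it in fewer than 4 CD11b+ but in all 4 CD11b- libraries, 2 of them in no CD11b+ library. The counts below therefore describe the members that passed. With edgeR's quasi-likelihood test and Benjamini-Hochberg adjustment over all 11965 genes at 0.05, 6 Hist-named genes were lower in CD11b+ cells, 0 were higher and 27 were not called, against a background of 15.0% of all tested genes called lower and 14.6% called higher. The called share of the Hist-named genes thus lay near the background. Only 3 were called without CD11b+ replicate 2 (Hist1h2bc, Hist1h2ae and Hist3h2a). Unadjusted p-values under 0.05 were seen for 15 of the 33. The share of all tested genes with such p-values is not set beside this count, so it is not read against a background. All 33 fitted fold changes were below 0, as were 50.5% over all tested genes, and their median was -2.003 on the log2 scale, within a range of -5.44 to -0.28. In 20 of the 33 all CD11b+ libraries lay below all CD11b- libraries, which was true of 18.4% of all tested genes. With DESeq2's Wald test 15 of the 33 were lower, against 18.1% of all genes with an adjusted p.

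Of the replacement genes, 4 of 8 tested were lower in CD11b+ cells and 0 were higher, against the same 15.0% and 14.6% of all genes. Unadjusted p-values under 0.05 were seen for 5 of the 8, again with no share over all tested genes beside that count. The median log2 fold change of the 8 genes was -0.39, within a range of -1.88 to 0.34. Non-overlapping lower CD11b+ libraries were seen for 4 of the 8, against 18.4% of all tested genes. Only H2afx and H3f3a were called when CD11b+ replicate 1, 2 or 3 or CD11b- replicate 1, 3 or 4 was left out, which gave 2 calls each time.

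**Figure D2:**
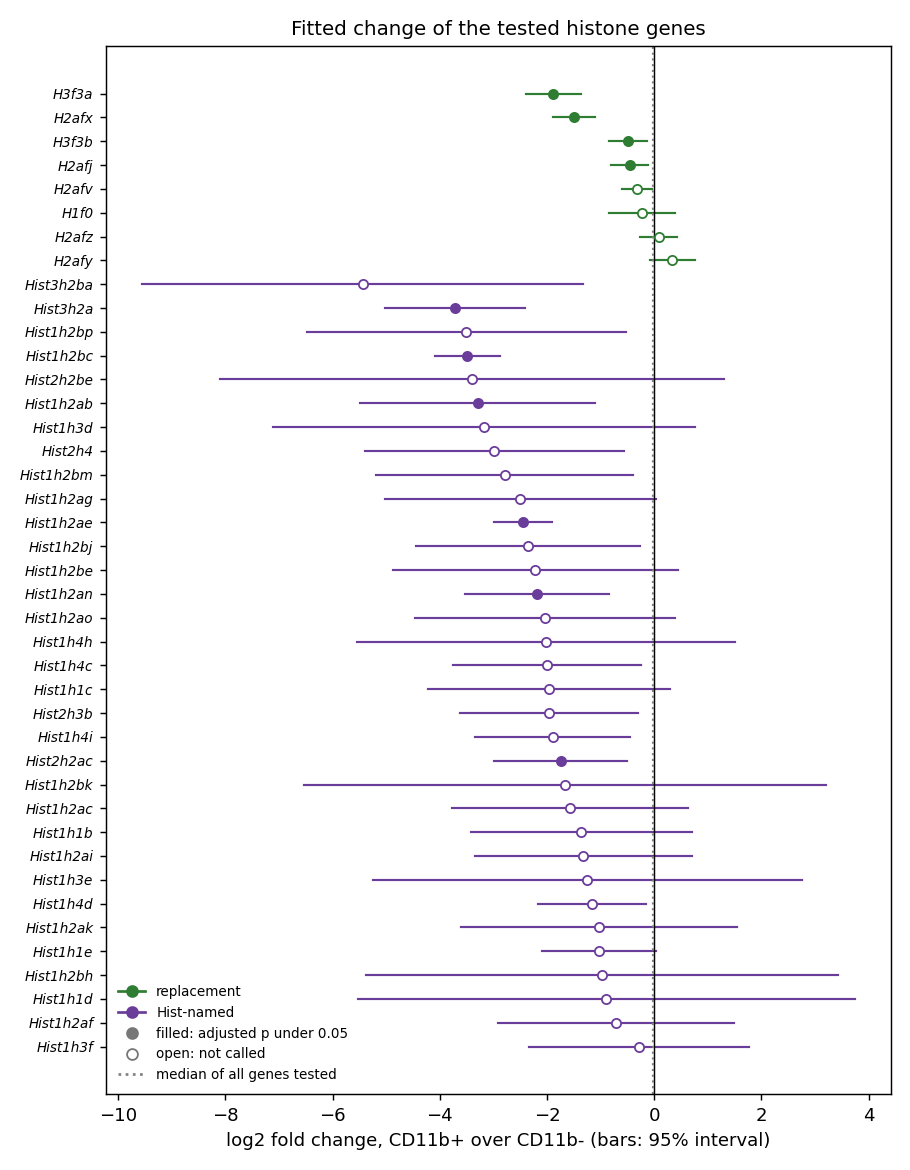
Fitted log2 fold change, CD11b+ over CD11b-, of the 41 tested histone genes with 95% intervals, replacement genes at the top and Hist-named genes below, filled where edgeR's adjusted p was under 0.05. The Hist-named points run from -5.44 to -0.28, all left of 0 with mostly wide intervals, and the replacement points run from -1.88 to 0.34 with narrow ones; the dotted line is the median of all tested genes, -0.01.

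Among the H2A and H2B genes, Hist1h2bc, which encodes a canonical H2B, had 8.68, 5.10, 5.20 and 8.22 CPM in CD11b+ replicates and 73.2, 75.3, 71.2 and 94.9 CPM in CD11b- replicates. The lowest CD11b- library was several times the highest CD11b+ library. It fell 11.2-fold in CD11b+ cells (log2 fold change -3.49, SE 0.27, edgeR adjusted p = 1.22e-05). Hist1h2bc alone made up most of the H2B sum in both populations.

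Hist1h2ae, a canonical H2A gene, had 12.5, 13.2, 11.7 and 11.4 CPM in CD11b+ replicates and 53.7, 60.9, 67.4 and 92.1 CPM in CD11b- replicates. The CD11b+ libraries agreed closely, and CD11b- replicate 4 was the highest. The gene fell 5.45-fold (log2 fold change -2.45, SE 0.24, edgeR adjusted p = 5.23e-05). Per kilobase of annotated exon it was the Hist-named gene of highest level among those named here, at 17.3 ± 1.14 CPM per kb in CD11b+ cells and 97.4 ± 23.7 CPM per kb in CD11b- cells, against 5.88 ± 1.66 CPM per kb in CD11b+ cells and 68.0 ± 9.46 CPM per kb in CD11b- cells for Hist1h2bc.

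Hist3h2a, an H2A gene on chromosome 11 outside the large chromosome 13 cluster that holds 49 of the Hist-named genes, had 6.98, 1.95, 1.42 and 4.85 CPM in CD11b+ replicates and 33.3, 36.8, 67.1 and 65.7 CPM in CD11b- replicates. Both groups were spread, with CD11b- replicates 3 and 4 about level and above the other two, and they did not overlap. It fell 13.1-fold (log2 fold change -3.71, SE 0.58, edgeR adjusted p = 9.32e-04). Its annotated exons overlap Trim17 on the same strand, so its counts are uncertain to that extent. Its neighbour in name, the H2B gene Hist3h2ba, had the lowest fitted fold change of the 41 tested members, -5.44 on the log2 scale (SE 1.84), and was not called (edgeR adjusted p = 0.0505); it is named here because of that value, and it reached the filter in 0 CD11b+ libraries. Hist3h2ba had 0.164 CPM in CD11b+ replicate 1 and was at 0 in the other CD11b+ libraries, against 2.50, 2.00, 2.66 and 0.585 CPM in CD11b- replicates.

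The other 3 calls were of low H2A genes and were less firm. Hist2h2ac had 3.26, 3.04, 1.99 and 2.98 CPM in CD11b+ replicates and 8.45, 7.92, 13.2 and 9.11 CPM in CD11b- replicates (log2 fold change -1.75, SE 0.55, edgeR adjusted p = 0.0391). Its groups did not overlap, and the call was lost on leaving out any library other than CD11b- replicate 2, with adjusted p-values of 0.0467 to 0.102. Hist1h2an had 2.82, 1.65, 1.59 and 1.90 CPM in CD11b+ replicates and 9.68, 7.83, 12.5 and 7.10 CPM in CD11b- replicates (log2 fold change -2.19, SE 0.60, edgeR adjusted p = 0.0203). It shares 85.8% of its 50-base stretches with other annotated genes, and the test no longer called it once replicate 2 or 3 of the CD11b+ libraries or replicate 3 of the CD11b- libraries was removed (adjusted p 0.0253 to 0.0566 over the 8 omissions). The shared part was 43.2% for Hist1h2ae, 38.6% for Hist2h2ac, 31.5% for Hist3h2a and 30.1% for Hist1h2bc. Hist1h2ab had 0.301, 0.178, 0.773 and 0.197 CPM in CD11b+ replicates and 5.56, 3.86, 2.996 and 2.41 CPM in CD11b- replicates (log2 fold change -3.29, SE 0.98, edgeR adjusted p = 0.0297). This gene reached the filter in only 2 CD11b+ libraries, shares 58.0% of its 50-base stretches, and lost its call without CD11b+ replicates 1, 2 or 4 or CD11b- replicate 1 (adjusted p 0.0295 to 0.0737 over the 8 omissions). All 6 calls were of H2A and H2B genes, 5 of 11 tested H2A and 1 of 9 tested H2B, and 0 of the 13 tested H1, H3 and H4 genes were called, against 15.0% of all tested genes called lower. That split over classes belongs to the edgeR test on all libraries. Under the 17 alternatives that tested them, Hist1h4i was called lower in 5 (2 of them on leaving out CD11b- replicate 1 or 3, and adjusted p 0.0121 to 0.193 over all), Hist1h4c in 2, Hist2h3b in 2 and Hist1h1c in 1, and Hist1h4d was called in 1 of 18.

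**Figure D3:**
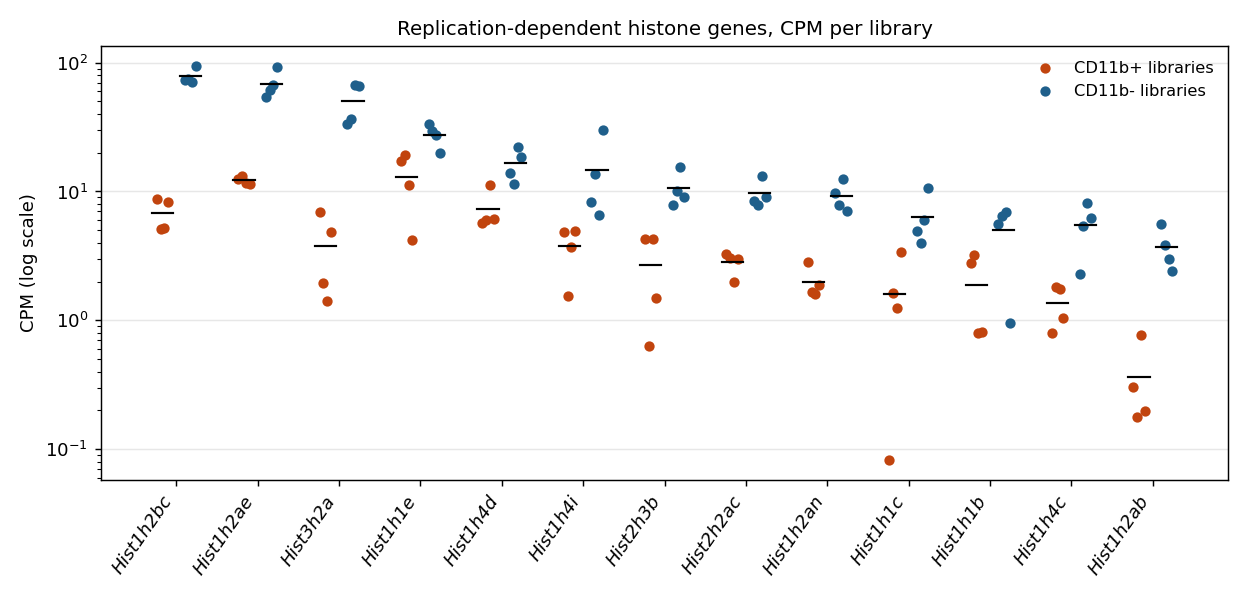
CPM on a log axis of 13 replication-dependent histone genes in each library, CD11b+ left and CD11b- right within each gene, with a bar at each mean. The CD11b+ points lie below the CD11b- points without overlap for every gene except Hist1h1b, whose CD11b- replicate 4 (0.951 CPM) sits within the CD11b+ range. The genes shown were picked for a high mean CPM or a call. Such separation was seen in 20 of the 33 tested Hist-named genes and in 18.4% of all tested genes.

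The linker histone genes were not called. Hist1h1e, at 6.76 ± 3.52 CPM per kb in CD11b+ cells and 14.3 ± 2.89 CPM per kb in CD11b- cells the highest of the 3 named per length, had 17.3, 19.3, 11.3 and 4.23 CPM in CD11b+ replicates and 33.3, 29.7, 27.6 and 20.05 CPM in CD11b- replicates, and the highest CD11b+ library stood just under the lowest CD11b- library. Its log2 fold change was -1.03 (SE 0.47, edgeR adjusted p = 0.140), and its annotated exons overlap Hist1h2be on the same strand. Hist1h1c ranged from 0.0822 to 3.40 CPM in CD11b+ cells and from 3.97 to 10.7 CPM in CD11b- cells (log2 fold change -1.97, edgeR adjusted p = 0.185). Hist1h1b ranged from 0.794 to 3.20 CPM in CD11b+ cells and from 0.951 to 6.92 CPM in CD11b- cells (log2 fold change -1.36, edgeR adjusted p = 0.323), with groups that overlapped.

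Of the H3 and H4 genes, Hist1h4d had 5.72, 6.01, 11.3 and 6.08 CPM in CD11b+ replicates and 13.9, 11.5, 22.1 and 18.6 CPM in CD11b- replicates (log2 fold change -1.15, SE 0.45, edgeR adjusted p = 0.0848). CD11b+ replicate 3 stood above the other CD11b+ libraries and just below the lowest CD11b- library. Hist1h4i averaged 3.77 ± 1.59 CPM in CD11b+ cells and 14.6 ± 10.6 CPM in CD11b- cells, where replicate 4 alone had 29.9 CPM (log2 fold change -1.90, edgeR adjusted p = 0.0520). Hist1h4c averaged 1.35 ± 0.516 CPM in CD11b+ cells and 5.52 ± 2.43 CPM in CD11b- cells (log2 fold change -2.003, edgeR adjusted p = 0.0858). Hist2h3b, an H3 gene on chromosome 3, averaged 2.68 ± 1.91 CPM in CD11b+ cells and 10.6 ± 3.35 CPM in CD11b- cells (log2 fold change -1.96, edgeR adjusted p = 0.0762), and shares 79.7% of its 50-base stretches with other genes. Groups of these 4 genes did not overlap, and their 95% intervals stayed below 0 before adjustment, from -3.76 to -0.25 for Hist1h4c at the widest.

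The 25 Hist-named genes that were not tested reached at most 0.812 CPM in any CD11b+ library and 2.78 CPM in any CD11b- library. Over the subset, 24 genes averaged at least 1 CPM over the 8 libraries, 5 of them at least 10 CPM, and 34 averaged less than 1 CPM. Of the members known from germ cells, the testis H1 gene Hist1h1t had at most 0.164 CPM, the testis H2A gene Hist1h2aa at most 0.219 CPM, the oocyte H1 gene H1foo 1.32 CPM in CD11b+ replicate 3 and 0 elsewhere, and H2afb1 and H2afb2 at most 1.76 and 0.732 CPM.

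The Hist-named members were also grouped by their annotated 3′ end. Of the 19 members annotated with at least 100 bases after the stem-loop, 16 passed the filter and 4 averaged at least 10 CPM. Of the 17 with fewer than 100 bases after it, 9 passed and 0 averaged at least 10 CPM, and of the 22 with no stem-loop in an annotated transcript, 8 passed and 1, Hist1h2bc, averaged at least 10 CPM. Those 22 may lack the stem-loop in the annotation only, because a transcript annotated to end near the stop codon cannot show it. The median level of the longer-ended genes was 0.436 CPM per kb in CD11b+ cells and 2.41 CPM per kb in CD11b- cells. It was 0.309 CPM per kb in CD11b+ cells and 1.57 CPM per kb in CD11b- cells for the shorter-ended genes, and 0.102 CPM per kb in CD11b+ cells and 1.57 CPM per kb in CD11b- cells for those with no stem-loop. Calls, all lower, numbered 2 of 16 tested longer-ended genes, 2 of 9 shorter-ended genes and 2 of 8 with no stem-loop, against 15.0% of all tested genes called lower. Median exon length was 1261, 485 and 408 bases in the 3 groups, and the median share of 50-base stretches found in other genes was 19.6%, 58.0% and 54.3%. These properties moved together, and their separate parts were not tested.

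The replacement H3 genes encode the same H3.3 protein and behaved unequally. H3f3b had 1066, 982, 1112 and 1321 CPM in CD11b+ replicates and 1573, 1325, 1651 and 1932 CPM in CD11b- replicates. The highest CD11b+ library and the lowest CD11b- library were nearly level. H3f3b fell 1.41-fold in CD11b+ cells (log2 fold change -0.49, SE 0.16, edgeR adjusted p = 0.0433), and the call was lost on leaving out CD11b+ replicate 1, 2 or 3 or CD11b- replicate 1, 3 or 4 (adjusted p 0.0257 to 0.114 over the 8 omissions). H3f3a had 21.8, 27.3, 28.7 and 22.6 CPM in CD11b+ replicates and 76.8, 78.6, 114 and 109 CPM in CD11b- replicates. The groups were wide apart, and H3f3a fell 3.68-fold (log2 fold change -1.88, SE 0.23, edgeR adjusted p = 1.85e-04). Its exons overlap the opposite-strand genes H3f3aos and Gm17275, whose reads cannot be told from its own. In all, 28 members have an exon that overlaps another gene. Opposite-strand genes also overlap Hist1h2ae, Hist3h2a, Hist2h2ac, Hist1h2an, Hist1h2ab, H2afx, H2afj, H2afy and H1f0, and the same limit holds there. Per kilobase H3f3b stood at 376 ± 48.5 CPM per kb in CD11b+ cells and 544 ± 84.0 CPM per kb in CD11b- cells, against 7.17 ± 0.982 CPM per kb in CD11b+ cells and 27.0 ± 5.64 CPM per kb in CD11b- cells for H3f3a.

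Within each library, H3f3a made up 2.00, 2.71, 2.52 and 1.68% of the counts of these H3.3 genes together in CD11b+ replicates, against 4.66, 5.60, 6.46 and 5.36% in CD11b- replicates, with no overlap. The log2 ratio of H3f3a over H3f3b averaged -5.48 ± 0.321 in CD11b+ cells and -4.11 ± 0.206 in CD11b- cells, a difference of -1.37. The 2-sided exact permutation test gave p = 0.0286, the smallest that 4 against 4 libraries allow, and 0.0286 after adjustment over the 2 gene pairs compared, both chosen after their values were seen. Because of that choice, the p-values of both pairs describe the separation seen and do not test it. The adjustment does not account for the choice. The other pair was H2afv and H2afz, which encode closely related forms of H2A.Z. Their log2 ratio, H2afv over H2afz, averaged 1.34 ± 0.202 in CD11b+ cells and 1.74 ± 0.0995 in CD11b- cells, a difference of -0.39 with the same exact permutation p of 0.0286.

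Promoter sequence of the H3.3 genes and of Hist1h2ae and Hist3h2a is printed so that genes that make 1 protein but changed unequally, and H2A genes that fell, can be set beside motifs known from histone promoters. RefSeq lists Hist1h2ae as H2ac8 and Hist3h2a as H2aw. Each line is the 150 bases before the RefSeq start, on the strand of the gene, 5′ to 3′, on build GRCm38.p6. Capitals mark 3 motifs on either strand. They are the CCAAT box, which reads ATTGG on the other strand; the TATA box, searched as TATAAA, which reads TTTATA there; and the octamer that binds OCT1, searched as ATTTGCAT, which reads ATGCAAAT there.
Hist1h2ae (chr13:23571221-23571370, minus strand): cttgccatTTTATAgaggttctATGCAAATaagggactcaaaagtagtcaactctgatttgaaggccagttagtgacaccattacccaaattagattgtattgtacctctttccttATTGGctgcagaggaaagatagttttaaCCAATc
Hist3h2a (chr11:58954535-58954684, plus strand): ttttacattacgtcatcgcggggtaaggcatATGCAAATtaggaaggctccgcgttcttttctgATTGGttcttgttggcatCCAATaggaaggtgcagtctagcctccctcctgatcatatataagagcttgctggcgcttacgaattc
H3f3a (chr1:180813606-180813755, minus strand): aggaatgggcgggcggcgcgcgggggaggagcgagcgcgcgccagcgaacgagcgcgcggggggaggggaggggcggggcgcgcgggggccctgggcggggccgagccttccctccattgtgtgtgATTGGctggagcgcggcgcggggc
H3f3b (chr11:116024505-116024654, minus strand): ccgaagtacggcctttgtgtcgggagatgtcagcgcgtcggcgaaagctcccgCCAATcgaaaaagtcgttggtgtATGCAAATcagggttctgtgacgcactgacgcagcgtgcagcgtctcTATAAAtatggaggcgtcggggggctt
In these windows Hist1h2ae holds 2 CCAAT, 1 TATAAA and 1 octamer, Hist3h2a 2 CCAAT and 1 octamer, H3f3b 1 of each motif, and H3f3a 1 CCAAT alone. Position was not part of the search. The TATAAA match of Hist1h2ae reads TTTATA and lies at the end of the window far from its start. Hist3h2a has tatataag near its start, which the search for TATAAA does not match. Promoters were matched for 65 members, 53 Hist-named and 12 replacement. Over the 250 bases before the start, CCAAT was found in 84.9% of the Hist-named and 58.3% of the replacement promoters, against 33.85% of 32851 promoters in the RefSeq table. Every matched H1, H2A, H2B and H3 promoter of the Hist-named subset held it, and 3 of 11 H4 promoters did. TATAAA was found in 50.9% of the Hist-named, 8.33% of the replacement and 12.4% of all promoters. The octamer was found in 22.6% of the Hist-named promoters, all of them H2A (7 of 15) or H2B (5 of 13), in 1 replacement promoter, that of H3f3b, and in 1.60% of all promoters. Some H2A and H2B genes start close together on opposite strands, so their windows overlap and the same match can count for both. The TATAAA and octamer matches of Hist1h2ae are the same bases as those of the H2B gene Hist1h2bg. The percentages are therefore not of independent promoters. The 3 motifs share no letters in the windows shown, and a match describes the letters only.

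H2afx had 296, 308, 313 and 275 CPM in CD11b+ replicates and 679, 769, 912 and 1085 CPM in CD11b- replicates. The CD11b+ libraries were tightly grouped, and the lowest CD11b- library was still more than double the highest of them in CPM. H2afx fell 2.81-fold in CD11b+ cells (log2 fold change -1.49, SE 0.18, edgeR adjusted p = 1.50e-04). Among H2afx, H2afj, H2afz and H2afv together it took 26.6 ± 2.72% of counts in CD11b+ cells and 45.0 ± 3.95% in CD11b- cells, and per kilobase it stood at 215 ± 12.3 CPM per kb in CD11b+ cells and 622 ± 128 CPM per kb in CD11b- cells.

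Changes of the remaining H2A variants were smaller or not called. H2afj, a polyadenylated H2A variant, had 228, 232, 235 and 304.6 CPM in CD11b+ replicates and 372, 289.5, 357 and 394 CPM in CD11b- replicates, with CD11b+ replicate 4 above CD11b- replicate 2. It fell 1.37-fold (log2 fold change -0.46, SE 0.15, edgeR adjusted p = 0.0462), a call lost without CD11b+ replicate 1, 2 or 3 or CD11b- replicate 1, 3 or 4 (adjusted p 0.0232 to 0.117 over the 8 omissions). H2afv had 393, 425, 400.2 and 438 CPM in CD11b+ replicates and 517, 483, 504 and 623 CPM in CD11b- replicates, and was not called though the groups did not overlap (log2 fold change -0.32, SE 0.13, edgeR adjusted p = 0.0908). H2afz, the other H2A.Z gene, had nearly the same range in both populations, 141 to 201 CPM in CD11b+ cells and 139 to 195 CPM in CD11b- cells. Its log2 fold change was 0.08 with a 95% interval of -0.27 to 0.43 (edgeR adjusted p = 0.756).

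H2afy, which encodes macroH2A1, a variant with a large extra domain linked to silent chromatin, had 699, 778, 571 and 886 CPM in CD11b+ replicates and 716, 715, 484 and 490.4 CPM in CD11b- replicates. The groups overlapped, and CD11b- replicates 1 and 2, the libraries with the most Mpo, were the higher CD11b- libraries. It had the highest fitted fold change of the tested members, 0.34 on the log2 scale (SE 0.19, edgeR adjusted p = 0.228), and was not called. Its relative H2afy2, macroH2A2, had 2.99 and 6.25 CPM in CD11b+ replicates 2 and 4, was at 0 in the other CD11b+ libraries, and reached at most 0.0366 CPM in the CD11b- libraries. It did not pass the filter and was not tested. H1f0, the linker histone known to build up in cells that stop dividing, had 23.6, 27.6, 26.2 and 47.3 CPM in CD11b+ replicates and 34.9, 37.9, 40.1 and 36.0 CPM in CD11b- replicates. CD11b+ replicate 4 lay above all CD11b- libraries and the other 3 below them, and the gene was not called (log2 fold change -0.22, SE 0.27, edgeR adjusted p = 0.614).

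**Figure D4:**
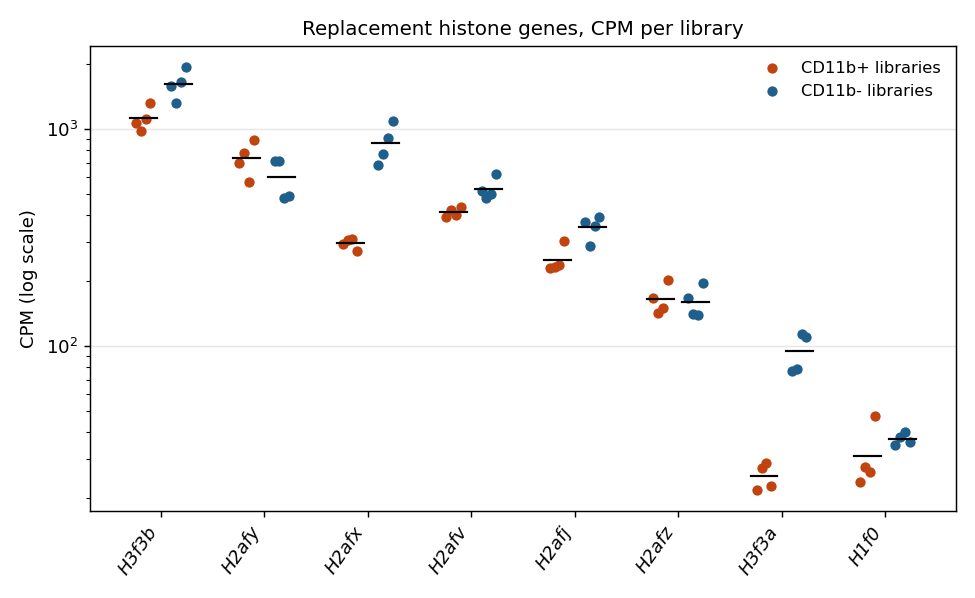
CPM on a log axis of the 8 tested replacement histone genes in each library, CD11b+ left and CD11b- right within each gene, with a bar at each mean. H3f3a (21.8 to 28.7 CPM in CD11b+ and 76.8 to 114 CPM in CD11b- libraries) and H2afx (275 to 313 CPM in CD11b+ and 679 to 1085 CPM in CD11b- libraries) show the widest gaps, while the groups of H2afy, H2afz, H2afj and H1f0 overlap.

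Ordered by CD11b+ level per kilobase, the tested replacement genes ran from H3f3b (376 CPM per kb) through H2afv (253), H2afx (215), H2afj (137), H2afy (108), H2afz (92.6) and H1f0 (15.2) to H3f3a (7.17). In CD11b- cells H2afx led with 622 CPM per kb, followed by H3f3b (544), H2afv (326), H2afj (193), H2afz (90.2), H2afy (88.3), H3f3a (27.0) and H1f0 (18.1). In CD11b- cells H2afx and H3f3b stood closer to each other than their SDs of 128 and 84.0 CPM per kb, as did H2afz and H2afy, with SDs of 14.6 and 19.4 CPM per kb. In CD11b+ cells H2afy and H2afz differed by less than the larger of their SDs, 19.5 CPM per kb. H2afv and H2afx in CD11b+ cells, with SDs of 13.02 and 12.3 CPM per kb, stood further apart than that.

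Genes that act on histone RNA and protein were described from 4 lists chosen with earlier results of these data known. Of 21 tested genes of histone mRNA 3′ processing and turnover, 3 were lower in CD11b+ cells, 1 was higher and 17 were not called, with a median log2 fold change of -0.15. Over all tested genes 15.0% were lower and 14.6% higher, so the lower calls of this list came at about the background share. Slbp, the stem-loop binding protein gene, had 210 ± 66.0 CPM in CD11b+ cells and 559 ± 208 CPM in CD11b- cells (log2 fold change -1.37, SE 0.29, edgeR adjusted p = 0.00485). Zfp473, the mouse gene of the zinc finger protein ZFP100 of the U7 complex, averaged 0.129 ± 0.222 CPM in CD11b+ cells and 9.14 ± 4.13 CPM in CD11b- cells (log2 fold change -6.08, SE 1.59, edgeR adjusted p = 0.0162). Cpsf3, the endonuclease that cuts histone and other pre-mRNAs, was higher, at 194 ± 19.5 CPM in CD11b+ cells against 116 ± 7.71 CPM in CD11b- cells (log2 fold change 0.78, SE 0.14, edgeR adjusted p = 0.00203). Exosc10, a nuclear exosome nuclease, averaged 213 ± 30.8 CPM in CD11b+ cells and 195 ± 25.6 CPM in CD11b- cells and was not called (edgeR adjusted p = 0.503).

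Of 15 tested genes of replication-coupled histone chaperones and H3-H4 supply, 6 were lower, 0 were higher and 9 were not called, against 15.0% lower and 14.6% higher over all tested genes, with a median of -0.59. Asf1b, an H3-H4 chaperone of dividing cells, averaged 669 ± 20.8 CPM in CD11b+ cells and 1357 ± 129 CPM in CD11b- cells (log2 fold change -0.98, edgeR adjusted p = 3.44e-04), and its relative Asf1a 110 ± 27.3 CPM in CD11b+ cells and 293 ± 40.2 CPM in CD11b- cells (log2 fold change -1.37, edgeR adjusted p = 2.92e-04). Mcm2, a helicase subunit that also binds H3-H4 at forks, averaged 559 ± 42.4 CPM in CD11b+ cells and 1380 ± 124 CPM in CD11b- cells (log2 fold change -1.26, edgeR adjusted p = 5.5e-05).

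Of 23 tested genes of replacement chaperones and exchange complexes, 8 were lower, 1 was higher and 14 were not called, with a median of -0.24, where all tested genes had 15.0% lower and 14.6% higher. Dek, a chromatin protein that binds H3.3, averaged 452 ± 117 CPM in CD11b+ cells and 1876 ± 313 CPM in CD11b- cells (log2 fold change -2.01, edgeR adjusted p = 4.76e-05). Znhit1, a subunit of the SRCAP complex that deposits H2A.Z, was higher, at 63.5 ± 8.01 CPM in CD11b+ cells and 27.8 ± 1.505 CPM in CD11b- cells (log2 fold change 1.23, edgeR adjusted p = 6.66e-04). Set, a histone chaperone, averaged 1823 ± 498 CPM in CD11b+ cells and 1687 ± 782 CPM in CD11b- cells and was not called (edgeR adjusted p = 0.790).

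Of 28 tested S phase and DNA replication genes, 18 were lower, 0 were higher and 10 were not called, with a median of -0.75, beside 15.0% lower and 14.6% higher among all tested genes. Rrm2, a subunit of the enzyme that makes deoxynucleotides, averaged 1589 ± 69.4 CPM in CD11b+ cells and 5485 ± 861 CPM in CD11b- cells, and the cyclin gene Ccna2 averaged 193 ± 38.4 CPM in CD11b+ cells and 949 ± 162 CPM in CD11b- cells (log2 fold changes -1.74 and -2.26). Mcm6, of the same helicase as Mcm2, averaged 975 ± 102 CPM in CD11b+ cells and 1682 ± 268 CPM in CD11b- cells (log2 fold change -0.74, edgeR adjusted p = 0.00322). Set against the summed counts of this list in each library, Hist-named genes had 10.9, 8.51, 8.996 and 7.84 counts per 1000 in CD11b+ replicates and 19.5, 19.7, 23.4 and 21.5 in CD11b- replicates. These ratios did not overlap, at 9.06 ± 1.32 in CD11b+ cells and 21.04 ± 1.81 in CD11b- cells. H2afx set against the same list gave 3.78 ± 0.368% in CD11b+ cells and 4.98 ± 0.654% in CD11b- cells, also without overlap.

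Many H2A and H2B genes start back to back and share the DNA between them. Among the members 9 such pairs were found in the annotation, with starts 176 to 302 bases apart. Their partners often differed widely in level per kilobase of annotated exon. Hist1h2ae, at 97.4 CPM per kb in CD11b- cells, starts 176 bases from Hist1h2bg, at 0.192 CPM per kb. Hist1h2bc, at 68.0 CPM per kb in CD11b- cells, starts 251 bases from Hist1h2ac, at 0.522 CPM per kb. In CD11b+ cells these values were 17.3 and 0.295 CPM per kb for Hist1h2ae and Hist1h2bg, and 5.88 and 0.168 CPM per kb for Hist1h2bc and Hist1h2ac. The other called genes with such a partner, Hist1h2an and Hist2h2ac, had 23.6 and 18.6 CPM per kb in CD11b- cells. Their partners there had 6.70 (Hist1h2bp) and 2.06 CPM per kb (Hist2h2be). Without scaling by length the CD11b- means stood closer, at 9.27 CPM for Hist1h2an and 4.73 CPM for Hist1h2bp. They were 9.66 CPM for Hist2h2ac and 5.40 CPM for Hist2h2be, whose CD11b- libraries ranged from 0.772 to 9.88 CPM. Annotated exon length was 393 bases for Hist1h2an, 706 for Hist1h2bp, 520 for Hist2h2ac and 2620 for Hist2h2be. The per-kilobase gaps of these pairs therefore rest in part on annotated length. No pair had both partners called, where 15.0% of all tested genes were called lower. Pairs that include Hist1h2bg, Hist1h2ah, Hist1h2bn, Hist1h2bl, Hist1h2bf or Hist1h2ad could not, because these genes were not tested.

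**Figure D5:**
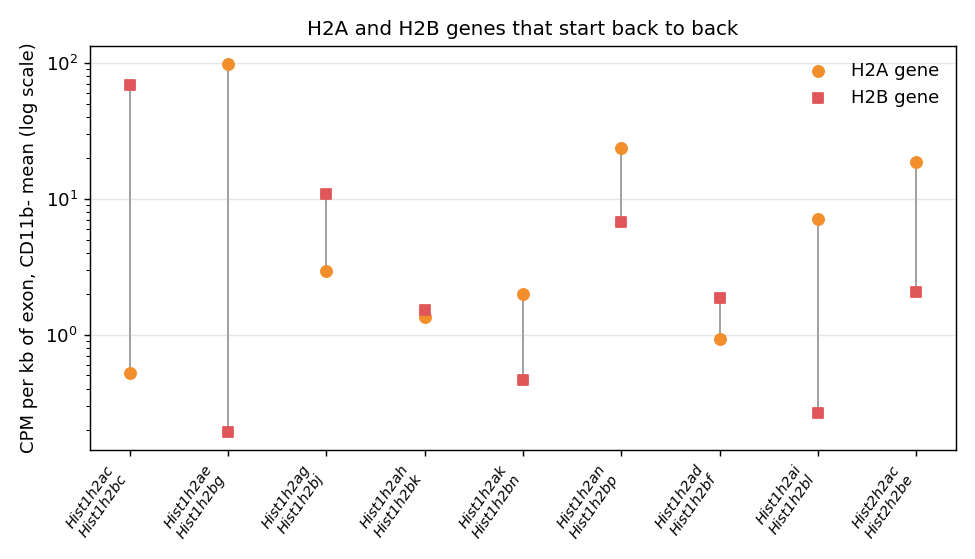
Mean CPM per kilobase of exon in the 4 CD11b- libraries, on a log axis, of the 9 H2A and H2B gene pairs that start back to back, with a line joining the partners of each pair. The gap is widest for Hist1h2ae and Hist1h2bg (97.4 and 0.192 CPM per kb) and for Hist1h2bc and Hist1h2ac (68.0 and 0.522 CPM per kb), and Hist1h2ah and Hist1h2bk lie close together.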

How the data were processed

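Per the labels, 8 SmartSeq2 libraries were made, 4 from each sorted population, described by the submitters as biological replicates. The authors deposited whole-number counts per gene symbol for each library, in files named as FPKM, and a CPM table, which the counts gave back within 0.0005. The submitters' processing notes name TopHat2, HTSeq 0.10.0, DESeq2 and mm9 without saying what each did. How multiply mapped reads were handled, which gene models were counted and whether strand was used is not given, so reads of near-identical or overlapping genes may be split or lost. Of 18817 listed rows, 27 have a number for a name and were left out (0.205% to 0.514% of counts).

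Counts were fitted with edgeR 4.0.16 in R 4.3.3, over the whole table, with TMM scaling, filterByExpr (minimum count 10, minimum total 15), the quasi-likelihood test, no covariate, and fold changes with a prior count of 0.125. SEs were worked back from the F statistic. Alternatives used DESeq2 1.42.0 and limma 3.58.1, and ratios scipy 1.17.1. The code was tested on simulated data with 200 changed genes. GENCODE M21 gave exon lengths, overlaps and stem-loops, and RefSeq (GRCm38.p6) the promoters; no mm9 coordinate was used. Members, lists and markers were chosen with earlier results of these data known. Named genes were the 12 Hist-named members of highest mean CPM, replacement members of at least 1 CPM, the strongest called members, called members of classes with 5 or fewer calls, germ cell members by range, and 2 abundant and the most changed genes of each list. Replicates differed by more than counting noise. Same-numbered libraries showed no clear correlation, which does not settle whether the numbers mark pairs.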

Additional observations from a re-analysis of the deposited data

Results flagged for a closer look

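In groups of 4 libraries, 48 were searched for a library far from the other 3, and 6 were found, where chance gives about 1 in 20. CD11b- replicate 4 had 94.9 CPM of Hist1h2bc, against 71.2 to 75.3 CPM in the other CD11b- libraries. CD11b+ replicate 3 had 11.3 CPM of Hist1h4d, against 5.72 to 6.08 CPM in the other CD11b+ libraries. CD11b+ replicate 4 stood apart for H2afj, at 304.6 CPM against 228 to 235 CPM, for H1f0, at 47.3 CPM against 23.6 to 27.6 CPM, and for the summed replacement genes, at 3503 CPM against 2838 to 2925 CPM. CD11b+ replicate 1 stood apart for the summed Hist-named genes, at 84.7 CPM against 66.0 to 67.9 CPM. Each remains a single library, and no cause was tested.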

How the results depend on the processing

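Of the 10 named members called, Hist1h2bc, Hist1h2ae, Hist3h2a, H2afx and H3f3a were called lower under all 18 alternatives. The others lost the call under some, with adjusted p-values over all alternatives of 0.00146 to 0.133 for Hist2h2ac, 1.43e-04 to 0.0792 for Hist1h2an, 9.15e-04 to 0.121 for Hist1h2ab, 0.00599 to 0.114 for H3f3b and 0.0156 to 0.121 for H2afj. Hist-named calls numbered 15 with DESeq2, 17 with limma on log2(CPM + 1) (18.7% of all genes lower), 3 with no filter, 3 with a filter of 10 CPM (5 Hist-named genes left), 3 with the replicate block, and 3 to 6 on leaving out a library, 3 without CD11b+ replicate 2. Replacement calls numbered 2 with library totals that leave out the 20 most abundant genes, 2 with no filter, 2 at 2-fold or more, and 2 to 4 on leaving out a library. Except for DESeq2, limma and the block, these counts stand without the calls over all genes under the same setting. Totals without those 20 genes moved the median of all genes by 0.108 (log2). Under the block, replacement calls numbered 3 and calls over all genes 3195 against 3549. Same-numbered libraries correlated at 0.0022 to 0.043, and differently numbered ones at -0.0344 to 0.0197. Values this low show no clear pairing, but they cannot settle whether the numbers mark pairs. The fold of H2afz (0.08) reversed to -0.0026 without CD11b+ replicate 4, within -0.0026 to 0.18 over the omissions, and to -0.00105 without the 2 CD11b- libraries highest in Mpo, and that of Set to -0.0488 without CD11b+ replicate 1 and -0.0839 without CD11b- replicate 4, within -0.0839 to 0.40 over the omissions. The cause was not tested. With a library left out, the exact test of the gene pair ratios cannot reach 0.05, and the differences ranged from -1.48 to -1.24 for H3f3a over H3f3b and from -0.47 to -0.32 for H2afv over H2afz. Of the 58 Hist-named genes, 34 averaged under 1 CPM, and 25 were too low to be tested.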
